A study of Mus musculus with 12 samples.

Results

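The genes described here are 10 ligands of the tumor necrosis factor (TNF) superfamily, namely *Tnf*, *Ltb*, *Tnfsf8*, *Tnfsf9*, *Tnfsf10*, *Tnfsf12*, *Tnfsf13*, *Tnfsf13b*, *Tnfsf14* and *Tnfsf15*, out of 54446 genes counted per library. They were chosen by their GENCODE symbol, and *Tnfsf15* was also chosen by its measured ratio of immunoprecipitated to input RNA in unirradiated tumors, so that this ratio is given below as a description without a test. TNF ligands are mostly type II membrane proteins that act as trimers, either on the cell surface or after proteolytic release, and bind receptors of the TNF receptor superfamily. The receptors recruit TRAF adaptors or death domain proteins and lead to NF-κB activation, costimulation of lymphocytes or apoptosis. In tumors, myeloid cells are a known source of several of these ligands. YTHDF2 is a cytoplasmic protein that binds RNA carrying N6-methyladenosine (m6A) and brings it to decay.

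The myeloid cells were taken by selection for CD11b+ from subcutaneous tumors of MC38, a colon carcinoma line of the mouse, in WT hosts that either stayed without irradiation (Ctrl) or got a single local dose of 20 Gy ionizing radiation (IR) 3 days before collection. The study's methods name the WT mice as Ythdf2 f/f animals, so both conditions carried the floxed, undeleted allele. The methods describe 3 pools of several mice, collected 3 days after IR, as technical replicates, and do not describe the control pools separately. Part of each lysate was kept as Input, and the rest went into the anti-YTHDF2 immunoprecipitation (IP), which gave 3 libraries in each of 4 groups (Ctrl Input, Ctrl IP, IR Input and IR IP) and 12 libraries in all. The p-values below therefore measure the spread between pools, which may be partly technical. No library of an IP with a control antibody was analysed here, so IP over Input describes recovery relative to the other RNAs of a library.

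Between 27852948 and 42382532 reads were counted on genes per library, and 3 counts, taken as the smallest detectable level, were worth 0.0708 to 0.108 CPM (read counts scaled for library size). The defining myeloid genes were high in all libraries, with none of 10 markers under 1 CPM. The summed level of the myeloid list was 5246 to 5353 CPM in Ctrl Input and 6495 to 6564 CPM in IR Input, and that of 7 neutrophil markers was 6006 to 6723 and 8474 to 9184 CPM. For 10 markers of T and NK cells the sum was 2.32 to 4.26 CPM over the Inputs, and at least 9 of them, *Cd3e*, *Cd8a* and *Cd4* included, were under 1 CPM in each Input group. In the IPs this sum was 4.80 to 7.55 CPM in Ctrl and 11.8 to 13.4 CPM in IR. Aligned reads on no gene made up 42.3% ± 0.46 (SD, n = 3) of the Ctrl IP libraries and 51.4% ± 2.43 of the IR IP libraries. In the Inputs they made up 27.0% ± 0.026 in Ctrl and 24.7% ± 0.065 in IR. This share thus differed between IP and Input as well, and its part in the ratios below was not tested.

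Stretches of *Tnfsf15*, *Tnfsf14* and *Tnf* are shown first because the first pair had the highest IP over Input ratios of the 10 ligands in both conditions, and *Tnf* had the lowest ratio of the ligands that were called in IR. Each is a window of 25 bases of the spliced transcript, 5′ to 3′ (GENCODE M21, mm10), with GGACT in capitals, a common form of the sequence in which m6A is placed. All 3 genes lie on the minus strand. The windows of *Tnfsf15* are 1 in the coding part of exon 1 and 3 in the 3′ UTR in exon 4 of 4, those of *Tnfsf14* are 1 in the coding part and 2 in the 3′ UTR, both in exon 4 of 4, and those of *Tnf* are 1 in the 5′ UTR in exon 1 and 2 in the 3′ UTR in exon 4 of 4.
Tnfsf15, coding, chr4:63744857-63744881: catcctcgcaGGACTtagcaccctc
Tnfsf15, 3′ UTR, chr4:63729413-63729437: tatgccttatGGACTaaaatagtaa
Tnfsf15, 3′ UTR, chr4:63727818-63727842: ctcagaagaaGGACTtattttttgg
Tnfsf15, 3′ UTR, chr4:63727342-63727366: attactaattGGACTcaaaccagca
Tnfsf14, coding, chr17:57190724-57190748: catcacccatGGACTatacaagcgc
Tnfsf14, 3′ UTR, chr17:57190456-57190480: gacctctccaGGACTcacctcaaac
Tnfsf14, 3′ UTR, chr17:57190157-57190181: catgttggcaGGACTtggggctcca
Tnf, 5′ UTR, chr17:35201963-35201987: ggacagcaagGGACTagccaggagg
Tnf, 3′ UTR, chr17:35199935-35199959: acagtgacctGGACTgtgggcctct
Tnf, 3′ UTR, chr17:35199904-35199928: ccaccatcaaGGACTcaaatgggct

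The motif did not set these ligands apart. GGACT was searched on the transcript strand only and was held by 9 of the 10 ligands, and by 92.5% of the 13795 protein-coding genes tested in IR. *Tnfsf13b*, with a transcript of 4771 bases, held none in the transcript used. *Tnfsf8* held 7, *Tnfsf15* 4, *Tnf*, *Tnfsf10*, *Tnfsf12* and *Tnfsf14* 3 each, *Ltb* and *Tnfsf9* 2 each and *Tnfsf13* 1, beside a median of 3 over the coding genes. ATTTA, the core of AU-rich elements that mark short-lived cytokine mRNAs, was counted 10 times in the 3′ UTR of *Tnfsf8*, 8 times in *Tnf* and *Tnfsf10*, 6 times in *Tnfsf13b* and 4 times in *Tnfsf15*, beside a median of 1. It was found in the 3′ UTR of 67.2% of coding genes, and not in that of *Ltb* or *Tnfsf13*. A match is a string of letters and no measurement of m6A or of decay.

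Transcript length varied more. *Tnf* (1639 bases), *Ltb* (1160), *Tnfsf9* (1290), *Tnfsf12* (1435), *Tnfsf13* (1503) and *Tnfsf14* (1847) were shorter than the median coding transcript of 3097 bases, and *Tnfsf15* (3347), *Tnfsf8* (3807), *Tnfsf13b* (4771) and *Tnfsf10* (4993) were longer. Over 10639 coding genes averaging 100 counts or more per library in IR, the log2 IP over Input ratio in IR had a Spearman correlation of 0.45 with transcript length, 0.39 with the number of GGACT and 0.073 with GGACT per kb. These points share the same libraries, and long transcripts hold more copies of any short motif. *Tnfsf14* and *Tnfsf9*, both short, had log2 ratios of 1.84 and 1.71 in IR.

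*Tnf* and *Ltb* were the most abundant of the 10 ligands in the Inputs per length of exon. In Ctrl Input their levels were 45.5 ± 1.23 and 42.3 ± 1.58 CPM per kb (SD, n = 3), and the libraries did not overlap. *Tnfsf12* followed at 10.5 ± 0.64 and *Tnfsf14* at 7.06 ± 0.39 CPM per kb, each apart from its neighbours. *Tnfsf9* (1.56 ± 0.25), *Tnfsf8* (1.19 ± 0.25) and *Tnfsf13b* (1.04 ± 0.056) came next, and the libraries of each neighbouring pair of these overlapped. Below them were *Tnfsf13* at 0.747 ± 0.089, *Tnfsf15* at 0.367 ± 0.093 and *Tnfsf10* at 0.0760 ± 0.029 CPM per kb, which did not overlap. In IR Input, *Ltb* (54.5 ± 4.03) came before *Tnf* (50.5 ± 1.12), with overlapping libraries. *Tnfsf15* was at order 8 there (0.661 ± 0.098), and its libraries overlapped those of *Tnfsf13*.

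In the YTHDF2 IP of Ctrl tumors the order differed from that of Ctrl Input. In Ctrl IP, *Ltb* was first at 56.2 ± 5.41 CPM per kb and *Tnfsf14* second at 33.6 ± 1.63, above *Tnf* at 26.7 ± 2.83, with no overlap. *Tnfsf15* moved from order 9 in the Input to order 5, at 7.41 ± 1.08 CPM per kb, and its libraries overlapped those of *Tnfsf12* above and *Tnfsf9* below. In IR IP, *Ltb* was first at 48.0 ± 5.26, as it was in IR Input. The libraries of *Tnfsf14* (25.4 ± 3.63) and *Tnf* (25.3 ± 4.54) overlapped, and *Tnfsf15* was at order 6 with 5.89 ± 0.13 CPM per kb (SD, n = 3).

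**Figure D1:**
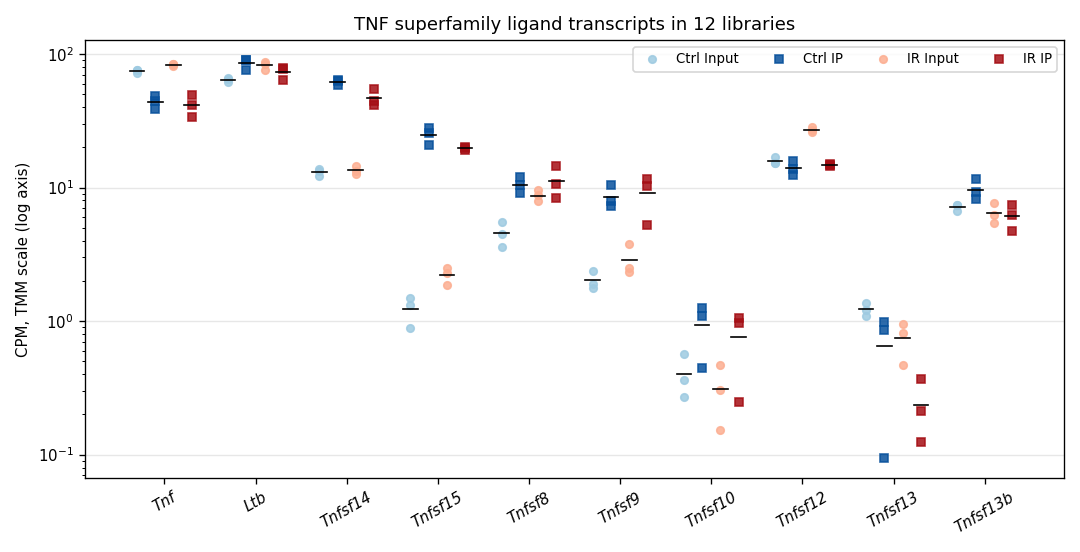
CPM of the 10 ligand genes on a log axis in the 12 libraries (points, 3 per group) with the group mean (line), for Ctrl Input, Ctrl IP, IR Input and IR IP. *Tnfsf15* lay at 0.884 to 2.49 CPM in the Inputs and at 19.2 to 28.0 CPM in the IPs, whereas *Tnf* was lower in the IPs than in the Inputs.

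Some of these levels are less certain than others. *Tnfsf10* had 6 to 40 counts per library and *Tnfsf13* 3 to 56. *Tnfsf12* and *Tnfsf13* lie next to each other on chromosome 11, and 731 of 1515 exon bases of the first and 983 of 1637 of the second are shared with the read-through gene *Tnfsfm13* (1 to 65 counts per library). Reads on shared bases may have gone uncounted, which lowers a level per kb. *Tnfsf9* shares 192 of 1290 exon bases with the opposite-strand gene *Gm11110*, and *Tnfsf13* shares 221 with *Tnfsf13os*. The strand setting of the counting was not given in the sources used here.

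The IP over Input ratio in Ctrl shows how far each ligand mRNA was recovered with YTHDF2 in unirradiated tumors, relative to all genes. *Tnfsf15*, which encodes TL1A, a costimulator of T cells through the receptor DR3, was the highest member. Its level was 1.31, 1.49 and 0.884 CPM in the 3 Ctrl Inputs and 20.9, 25.6 and 28.0 CPM in the 3 Ctrl IPs, from 36 to 58 and 652 to 819 counts. The fitted log2 ratio was 4.41 ± 0.19 (SE), a 21.3-fold higher level in the IP. This put it at rank 1 of the 11610 genes that averaged 100 counts or more and at rank 224 of all 17416 genes. The average was taken over Input and IP, and *Tnfsf15* reached it only through its IP counts.

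The other ligands lay on both sides of 0 in Ctrl. *Tnfsf14*, which encodes LIGHT, a ligand of the lymphotoxin β receptor and of HVEM, was at 12.3 to 13.7 CPM in the Inputs and at 58.7 to 64.4 CPM in the IPs, a log2 ratio of 2.33 ± 0.083 (SE). *Tnfsf9*, the ligand of the costimulatory receptor CD137, had a log2 ratio of 2.16 ± 0.22. *Tnfsf8*, the CD30 ligand, stood at 1.29 ± 0.19, and *Tnfsf10*, which encodes the death ligand TRAIL, also at 1.29 but with an SE of 0.60. *Tnfsf13b*, the B-cell survival factor BAFF, stood at 0.51 ± 0.16 and *Ltb*, the membrane anchor of lymphotoxin, at 0.48 ± 0.069.

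On the lower side were *Tnfsf12*, which encodes TWEAK, at -0.12 ± 0.12, *Tnf* at -0.69 ± 0.075 and *Tnfsf13*, which encodes APRIL, at -0.85 ± 0.62 (SE). *Tnf* was at 72.2 to 76.1 CPM in the Ctrl Inputs and 39.0 to 48.3 CPM in the Ctrl IPs, so that all IP libraries were below all Input libraries. The median log2 ratio was 0.90 over the 10 ligands and 0.018 over all genes, and since these genes include one picked for this ratio the pair of medians is a description.

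The same ratio was tested in the irradiated tumors. *Tnfsf15* was picked for its ratio in Ctrl, and its ratio in IR may not be independent of that choice, since earlier results of these data were known. After IR, 3 of the 10 ligands were higher in the IP than in the Input (*Tnfsf9*, *Tnfsf14* and *Tnfsf15*), where 32.1% of 18650 genes were higher. The lower ones were *Tnf* and *Tnfsf12*, 2 of 10, where 30.4% of genes were lower. Both counts are close to the share over all genes, and the median log2 ratio was 0.19 over the 10 ligands and 0.10 over all genes. Without *Tnfsf15*, 2 of 9 ligands were higher and 2 were lower, with a median of -0.022.

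*Tnfsf15* was at 1.85, 2.49 and 2.30 CPM in the IR Inputs and at 19.9, 19.2 and 20.0 CPM in the IR IPs. The groups were far apart, and the spread between the IR IPs was small. The log2 ratio was 3.21 ± 0.18 (SE; edgeR adjusted p = 6.09e-08), a 9.25-fold higher level in the IP. This was rank 34 of the 11819 genes that averaged 100 counts or more over Input and IP, and rank 1429 of all 18650 genes. *Tnfsf15* reached that average only through its IP counts, with 72, 90 and 93 counts in the IR Inputs. *Tnfsf14* was at 13.4, 12.7 and 14.6 CPM in the Inputs and 41.8, 54.5 and 44.5 CPM in the IPs, again with no overlap (log2 ratio 1.84 ± 0.13, adjusted p = 3.05e-07). *Tnfsf9* was at 2.49, 3.76 and 2.33 CPM in the Inputs and 5.27, 10.3 and 11.6 CPM in the IPs. Its IP replicate 1 was the closest to the Inputs, and the log2 ratio was 1.71 ± 0.33 (adjusted p = 0.00096).

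*Tnf*, the founding inflammatory cytokine of the family, was recovered less than the average gene. It was at 80.7, 83.7 and 84.0 CPM in the IR Inputs and 48.9, 34.0 and 41.5 CPM in the IR IPs, with all IPs lower (log2 ratio -0.94 ± 0.12, adjusted p = 3.53e-05). *Tnfsf12*, which acts on the receptor Fn14, was at 28.3, 27.1 and 26.1 CPM in the Inputs and 15.1, 14.5 and 14.7 CPM in the IPs (log2 ratio -0.83 ± 0.11, adjusted p = 9.32e-05). The calls of these 5 genes were made under each of the 18 alternative settings.

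The other 5 ligands did not pass the test in IR. *Ltb* had a log2 ratio of -0.13, with a normal 95% interval of -0.31 to 0.054, and *Tnfsf13b* of -0.022 with an interval of -0.50 to 0.46. *Tnfsf8* stood at 0.41 (interval -0.013 to 0.83), *Tnfsf10* at 1.33 (-0.26 to 2.92) and *Tnfsf13* at -1.61 (-3.10 to -0.12, edgeR unadjusted p = 0.058, adjusted p = 0.087). The last 2 intervals span several-fold differences because their counts were low. Without IR IP replicate 1, *Tnfsf8* (0.65, adjusted p = 0.011) and *Tnfsf10* (1.83, adjusted p = 0.037) were also called higher, which made 5 of 10. Without IR IP replicate 3, *Tnfsf13* was called lower (-2.01, adjusted p = 0.043). *Tnfsf8* was also called with library size only (0.56, adjusted p = 0.042), with 10 counts in every library (0.53, 0.048) and with protein-coding genes only (0.54, 0.045), which made 4 of 18 alternatives. *Ltb* was called lower with no filter on low counts (-0.27, adjusted p = 0.0060), and its sign changed with library size only (0.022).

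**Figure D2:**
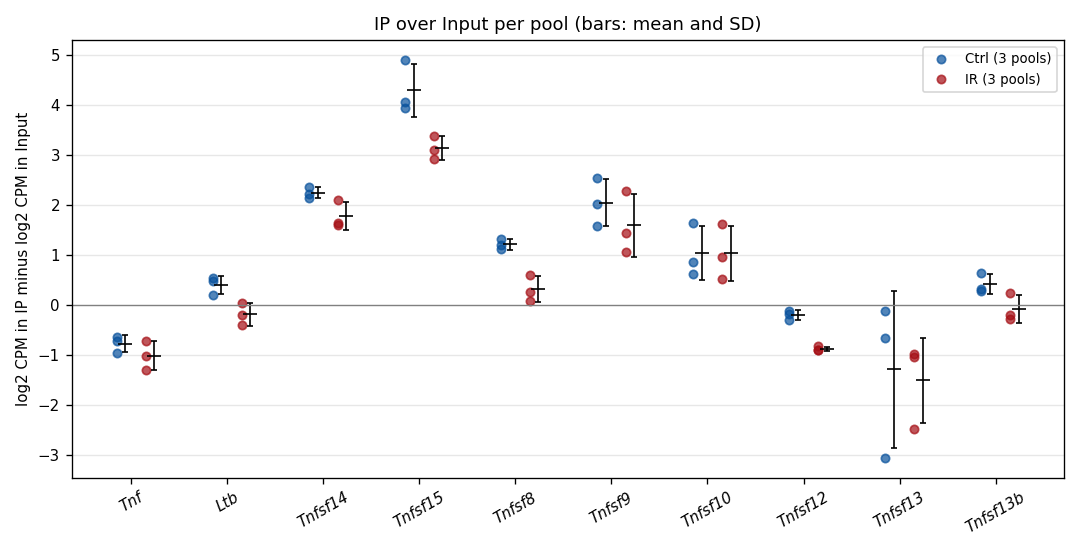
Difference of log2 CPM between the IP and the Input of the same replicate number (points, 3 pools per condition) with mean and SD (bars), in Ctrl and IR. *Tnfsf15* lay at 3.93 to 4.90 in Ctrl and 2.92 to 3.39 in IR, and *Tnf* was below 0 in each of the 6 pools.

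The next comparison asks whether the IP over Input ratio of a ligand differed between IR and Ctrl, as the interaction of fraction and condition over all 12 libraries. Among the 9 ligands other than *Tnfsf15*, 4 had a lower ratio in IR (*Ltb*, *Tnfsf8*, *Tnfsf12* and *Tnfsf14*), where 13.9% of 20720 genes were lower. None had a higher ratio, where 6.28% of genes did, and this count was also 0 at an unadjusted p under 0.05 and with DESeq2. The median difference on the log2 scale was -0.51 over the 9 ligands and -0.083 over all genes. Of 15 signalling genes downstream of the receptors, 7 had a lower ratio in IR and 0 a higher one. The counts were 3 lower and 1 higher of 25 tested receptors, and 0 lower and 1 higher of 6 processing genes. A lower ratio in IR was therefore not particular to the ligands.

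Per-pool differences of log2 CPM were taken between IP and Input of 1 replicate number, a pairing that the sources do not state. In these, *Ltb* stood at 0.48, 0.19 and 0.55 in Ctrl and at -0.19, -0.40 and 0.043 in IR. The pools of the conditions did not overlap, and the fitted difference was -0.59 ± 0.12 (SE, edgeR adjusted p = 0.0013). *Tnfsf8* stood at 1.32, 1.12 and 1.20 in Ctrl and at 0.094, 0.60 and 0.27 in IR, also without overlap (-0.85 ± 0.30, adjusted p = 0.0486). *Tnfsf12* stood at -0.30, -0.12 and -0.17 in Ctrl and at -0.90, -0.90 and -0.82 in IR, 2 narrow and separate ranges (-0.69 ± 0.17, adjusted p = 0.0058). *Tnfsf14* stood at 2.15, 2.36 and 2.23 in Ctrl and at 1.64, 2.10 and 1.60 in IR, where IR replicate 2 came close to the Ctrl pools (-0.46 ± 0.15, adjusted p = 0.035).

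For *Tnfsf15* the values were 3.93, 4.05 and 4.90 in Ctrl and 3.39, 2.92 and 3.09 in IR. All pools of IR were lower, and the fitted difference was -1.18 ± 0.27 (SE), for which no test is given since the Ctrl libraries entered its choice. The remaining ligands did not pass the test, with -0.23 for *Tnf* (interval -0.51 to 0.050), -0.42 for *Tnfsf9* (-1.21 to 0.37) and -0.51 for *Tnfsf13b* (-1.08 to 0.063). *Tnfsf10* (0.067, interval -1.95 to 2.09) and *Tnfsf13* (-0.75, interval -2.76 to 1.27) had intervals too wide to read.

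These differences depend on the scaling between libraries and, for *Tnfsf8* and *Tnfsf14*, on single libraries. *Tnfsf8* was called in 5 of 23 alternatives and *Tnfsf14* in 8, against 22 for *Ltb* and 20 for *Tnfsf12*. With 1 library left out, *Tnfsf8* was called only when that was Ctrl Input replicate 2 or IR IP replicate 2 (otherwise adjusted p = 0.058 to 0.16). *Tnfsf14* was called only when it was Ctrl Input replicate 3, IR Input replicate 2 or IR IP replicate 2 (otherwise adjusted p = 0.061 to 0.14). With library size only in place of TMM, the differences of all genes shifted by a median of 0.31, and the split of all genes turned from 6.28% higher and 13.9% lower to 13.8% higher and 4.23% lower. Under that scaling none of the 9 ligands was called. *Ltb* was at -0.28, *Tnfsf8* at -0.54, *Tnfsf12* at -0.38 and *Tnfsf14* at -0.15, which lie below the median of all genes under this scaling, 0.23. *Tnfsf8* was not called by DESeq2 (adjusted p = 0.052), and *Tnfsf8* and *Tnfsf14* were not called with DESeq2's size factors in edgeR (adjusted p = 0.066 and 0.065). The share of reads outside genes, which was higher in the IR IPs, moved with this contrast, and its part in the result was not tested.

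The abundance of the transcripts was compared between IR and Ctrl in the Input libraries. IR tumors held more of 3 of the 9 ligands (*Ltb*, *Tnfsf8* and *Tnfsf12*), where 21% of 16914 genes were higher. None was lower by edgeR or by DESeq2, where 23.9% of genes were lower by edgeR, although *Tnfsf13* had an unadjusted p under 0.05, 1 of 9. The median log2 difference was 0.072 over the 9 ligands and 0.0072 over all genes. The sorted cells are a mixture, so fewer cells of a type and less RNA per cell cannot be told apart.

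*Tnfsf12* had the clearest difference, from 15.4, 17.1 and 15.3 CPM in Ctrl to 28.3, 27.1 and 26.1 CPM in IR. All IR libraries were higher, and the fitted log2 difference was 0.69 ± 0.076 (SE, edgeR adjusted p = 2.80e-08), or 1.61-fold. *Tnfsf8* was at 3.60, 5.49 and 4.52 CPM in Ctrl and at 7.89, 9.53 and 8.74 CPM in IR, a larger difference with a wider spread (0.86 ± 0.14, adjusted p = 1.86e-05). *Ltb*, which forms heterotrimers with lymphotoxin α, was at 64.7, 66.1 and 61.4 CPM in Ctrl and at 87.7, 84.1 and 75.8 CPM in IR. It rose by a smaller factor, 1.22-fold (log2 difference 0.29 ± 0.051, adjusted p = 3.81e-05). All 3 were called under each of the 18 alternative settings. The summed myeloid and neutrophil markers were higher in the IR Inputs as well, and their part in these differences was not tested. Within the myeloid list the largest rise was that of *Itgam*, from a mean of 943 to 1717 CPM. *Ptprc* (341 to 322), *Csf1r* (213 to 208) and *Adgre1* (31.3 to 28.0) were lower in IR, and the other listed myeloid genes were higher.

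*Tnfsf15* had 46, 58 and 36 counts in the Ctrl Inputs and 72, 90 and 93 in the IR Inputs, so that all IR libraries were higher. The fitted log2 difference was 0.77 ± 0.27 (SE), given without a test. *Tnf* stood at 0.072, with an interval of -0.010 to 0.15, and *Tnfsf14* at -0.024, with an interval of -0.21 to 0.16, so neither differed by a large factor. All IR Inputs of *Tnf* (80.7 to 84.0 CPM) were above its Ctrl Inputs (72.2 to 76.1 CPM), although *Tnf* was not called. These CPM use the TMM factors of all 12 libraries, 1.02 in the Ctrl Inputs and 0.949 to 0.954 in the IR Inputs. The fit has factors of its own, so the separation may depend on the scale. *Tnfsf9* was at 0.42 (interval -0.034 to 0.87), *Tnfsf13b* at -0.22 (-0.49 to 0.039), *Tnfsf10* at -0.43 (-1.55 to 0.68) and *Tnfsf13* at -0.79 (-1.50 to -0.075, adjusted p = 0.081). *Tnfsf13* had 38, 47 and 56 counts in Ctrl and 37, 17 and 33 in IR. It was called lower where at least 10 counts were required in every library (adjusted p = 0.044), and *Tnfsf13b* was called lower without IR Input replicate 3 (-0.36, adjusted p = 0.048).

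In the IP libraries, which hold the RNA recovered with YTHDF2, *Tnfsf14* was the 1 ligand of 9 that was lower in IR, where 9.85% of 19255 genes were lower. It was at 58.7, 63.2 and 64.4 CPM in Ctrl and 41.8, 54.5 and 44.5 CPM in IR, without overlap (log2 difference -0.39 ± 0.11, adjusted p = 0.022). The call was lost without Ctrl IP replicate 2 (-0.38, adjusted p = 0.088), Ctrl IP replicate 3 (-0.37, 0.093), IR IP replicate 1 (-0.31, 0.071) or IR IP replicate 3 (-0.35, 0.062), and with library size only (-0.19, 0.26). No ligand was higher by edgeR, also at an unadjusted p under 0.05, or by DESeq2, where 6.12% of genes were higher by edgeR. With library size only, 13.8% of all genes were higher and 4.30% lower, and the differences of all genes shifted by a median of 0.21.

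Of the 9 ligands, 3 had a difference above 0 in the IP, and the median was -0.22, beside 0.062 over all genes. *Tnfsf8* stood at 0.094, *Tnfsf12* at 0.091, *Tnfsf9* at 0.085 and *Tnf* at -0.071, whereas *Ltb* was at -0.22 and *Tnfsf13b* at -0.65 (interval -1.14 to -0.16, adjusted p = 0.095). *Tnfsf10* was at -0.29 and *Tnfsf13* at -1.44, with wide intervals at their low counts (-1.99 to 1.42 and -3.79 to 0.90). *Tnfsf13b* was called without IR IP replicate 1 (-0.79, adjusted p = 0.0499) and with all 12 libraries in 1 fit (adjusted p = 0.026). *Tnfsf15* went from 20.9, 25.6 and 28.0 CPM in Ctrl to 19.9, 19.2 and 20.0 CPM in IR, a log2 difference of -0.32 ± 0.15 (SE) without a test. *Ltb*, *Tnfsf8* and *Tnfsf12* were thus higher in the IR Inputs and not called in the IPs, and the interaction above is the test of that difference. The Input, IP and interaction values share libraries and are not independent of each other.

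**Figure D3:**
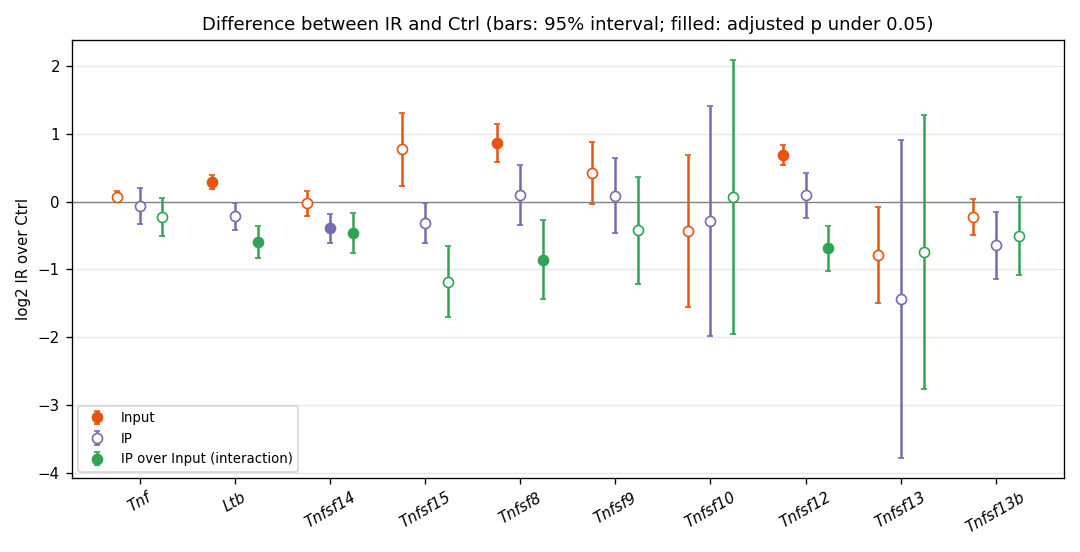
Fitted log2 differences between IR and Ctrl in the Input, in the IP and in IP over Input (bars, normal 95% intervals), with called genes filled. *Ltb*, *Tnfsf8* and *Tnfsf12* lay above 0 in the Input and below 0 in IP over Input. *Tnfsf15* stood at 0.77 and -1.18 and was not tested, since the Ctrl libraries that enter both values also entered its choice.

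The family holds other ligands, of which 8 were listed. *Fasl*, *Cd40lg*, *Tnfsf11*, *Tnfsf18* and *Eda* had at most 15 counts in any library and were not tested. *Tnfsf4*, the OX40 ligand, was higher in the IR Inputs (log2 difference 0.60 ± 0.091, adjusted p = 4.13e-06), at 11.1 to 11.4 CPM in Ctrl and 16.8 to 19.7 CPM in IR, and was the 1 of 3 tested that was called there. *Lta*, which encodes lymphotoxin α, was the 1 of 3 with a called interaction (-0.71 ± 0.23, adjusted p = 0.034), with per-pool values of 0.63, 0.30 and 0.50 in Ctrl and -0.61, 0.22 and -0.36 in IR. In IR, none of *Lta* (-0.17), *Tnfsf4* (0.26) and *Cd70* (-2.47) was called for IP over Input by edgeR, also at an unadjusted p under 0.05.

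Genes of the TNF receptor superfamily, not only the receptors of these ligands, were read from the same fits. In IR, 4 of 23 tested receptors were higher in the IP than in the Input and 9 were lower, beside 32.1% and 30.4% of all genes. *Ltbr*, the receptor of both LIGHT and lymphotoxin, was at 116 ± 7.20 CPM in IR Input and 469 ± 49.8 CPM in IR IP (SD, n = 3), a log2 ratio of 2.07 ± 0.079 (adjusted p = 2.36e-09). *Tnfrsf8*, the CD30 receptor, stood at 1.69 ± 0.24 (adjusted p = 1.01e-04), while its ligand *Tnfsf8* was not called. *Tnfrsf1a*, the main receptor of TNF, was at 0.47 ± 0.061 (adjusted p = 5.02e-05), on the other side of 0 from *Tnf*, and the other TNF receptor, *Tnfrsf1b*, was at 0.26. The largest lower ratios were those of *Tnfrsf26* (-1.60), *Tnfrsf12a* (-1.30), which encodes Fn14, and *Tnfrsf9* (-1.28), which encodes CD137, so the ligand *Tnfsf9* and its receptor lay on opposite sides. *Tnfrsf25*, the receptor of TL1A, had a mean of 31 counts per library in IR and a log2 ratio of 0.50 ± 0.61, and was named here for its ligand.

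In the Input, 11 of 24 receptors were higher in IR and 4 were lower, beside 21% and 23.9% of all genes. *Tnfrsf10b*, the receptor of TRAIL and a known target of p53, rose from 7.34 ± 1.33 to 19.0 ± 1.21 CPM (SD, n = 3; log2 difference 1.28 ± 0.11, adjusted p = 2.77e-10). *Tnfrsf18*, which encodes GITR, rose by 0.75 and *Tnfrsf13c*, the BAFF receptor, by 0.58 on the log2 scale. *Tnfrsf14*, which encodes HVEM, fell by 0.66, *Tnfrsf21* by 0.42 and *Tnfrsf11a*, which encodes RANK, by 0.34, and the fourth lower one was *Ngfr* (-2.60), which had few counts. *Ltbr* stood at 0.012 ± 0.044 and was not called. Its log2 IP over Input ratio was 2.60 in Ctrl and 2.07 in IR, lower in IR by the interaction (-0.51 ± 0.093, edgeR adjusted p = 4.55e-04).

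Of 15 signalling genes downstream of the receptors, 6 were higher and 1 was lower in the IP than in the Input in IR, beside 32.1% and 30.4% of all genes. *Traf1*, a TRAF adaptor, stood at 1.53 ± 0.045 (adjusted p = 3.64e-10), *Ripk1*, the kinase of TNF receptor complexes, at 0.54 and *Tradd*, the death domain adaptor, at 0.53. *Casp8*, the initiator caspase, was the lower one (-1.05 ± 0.070, adjusted p = 2.19e-07). In the Input, 7 of the 15 were higher in IR and 5 were lower, beside 21% and 23.9% of all genes. They were led by *Traf4* (0.50), *Birc2* (0.28) and *Traf1* (0.26) on one side and *Traf3* (-0.52), *Cflar* (-0.23) and *Tnfaip3* (-0.22) on the other, with *Traf6* (-0.17) and *Ripk1* (-0.12) as the remaining lower ones.

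Ligand shedding is carried out by membrane proteases and controlled by their partners, of which 6 genes were listed. In the IP of IR tumors, *Furin* (0.47), which cleaves ligands such as BAFF and APRIL, and *Rhbdf2* (0.39), a partner of ADAM17, were higher than in the Input. *Sppl2a* (-1.47), *Adam10* (-1.12) and *Adam17* (-0.54), which encodes the enzyme that releases TNF, were lower. These are 2 and 3 of the 6, beside 32.1% and 30.4% of all genes. In the Input, *Rhbdf2* was higher in IR (0.23), and 4 of the 6 were lower, namely *Adam17* (-0.33), *Sppl2b* (-0.27), *Adam10* (-0.24) and *Furin* (-0.15), beside 21% higher and 23.9% lower of all genes.

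**Figure D4:**
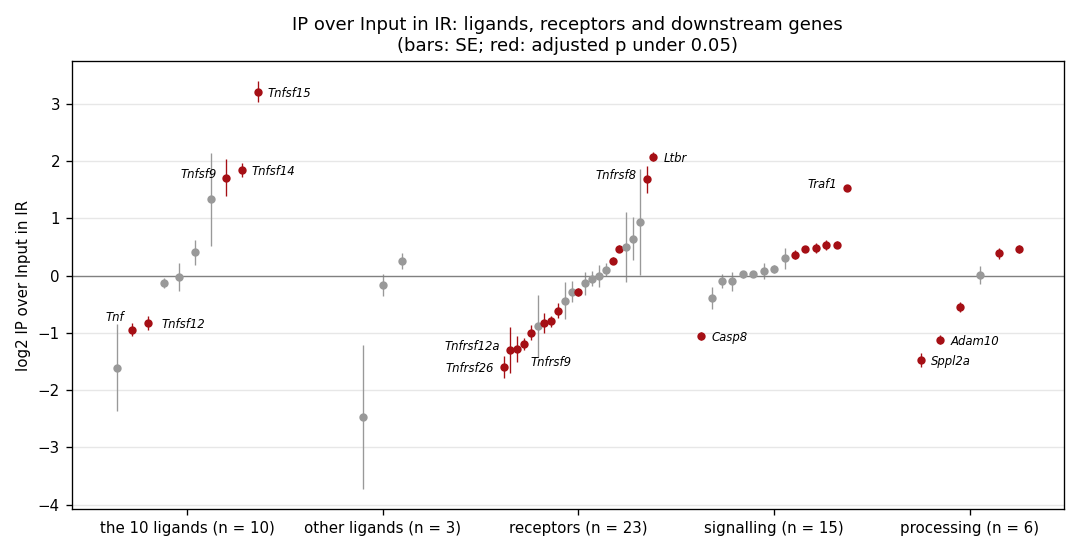
Fitted log2 IP over Input in IR of each tested gene in the ligand, receptor, signalling and processing lists (points, bars SE), with called genes in red. *Tnfsf15* at 3.21 and *Ltbr* at 2.07 were the highest called genes of the ligand and receptor lists, and the lists held called genes on both sides of 0.

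The genes most like *Tnfsf15* over the 12 libraries were found by the Pearson correlation of log2 CPM among the 11727 genes that averaged 100 counts or more. They were *Hmgb1-ps8*, a processed pseudogene (r = 0.996), *B230354K17Rik*, a long noncoding RNA (r = 0.996), and *Gm44836*, a sense intronic transcript (r = 0.996). *B230354K17Rik* was at 22.2 ± 2.65 and 29.7 ± 0.97 CPM in Ctrl and IR Input and at 163 ± 3.38 and 133 ± 4.79 CPM in Ctrl and IR IP (SD, n = 3). *Hmgb1-ps8* was at 77.9 ± 3.08, 114 ± 3.12, 545 ± 21.7 and 453 ± 28.8 CPM in the same order, and its reads may belong in part to *Hmgb1* and its other copies. The libraries fall into IP and Input, so these correlations rest on that difference, and none of the 3 is annotated as protein coding.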

How the data were processed

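Whole-number counts per GENCODE gene were deposited, 1 library per file and without normalization, which the authors had made by Trimmomatic trimming, HISAT alignment to mm10 and HTSeq counting. Duplicate removal was not given in the sources used here. The labels describe mRNA isolated before the IP, whereas the study's methods describe an IP from lysate, and they also differ on the antibody. Summary lines on uncounted reads were left out of library totals.

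Tests were made in R 4.3.3 with edgeR 4.0.16 (glmQLFit and glmQLFTest, quasi-likelihood) on the counts with TMM factors. A gene was tested if 3 or more libraries of the comparison had 10 counts or more. Benjamini-Hochberg adjustment ran over all genes tested, and genes with an adjusted p under 0.05 are said to be called. Standard errors are the absolute log2 value divided by the square root of F. CPM are on the TMM scale of all 12 libraries, whereas each fit has factors of its own, and TMM cannot show a change shared by most genes. Reads and copies of 1 molecule cannot be told apart, so the floor of 3 counts covers counting error only.

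The members, gene lists and tests were chosen with earlier results of these data known. All 10 ligands are named, and of each other list up to 3 genes with the largest change in each direction among called genes that averaged 100 counts or more, with no overlap of libraries. *Tnfrsf25*, *Tnfrsf1b*, *Ngfr*, *Traf6*, *Ripk1* and *Furin* in the Input, and the untested or uncalled ligands of the list, were named after their values were seen, to complete a count or for their ligand. Symbols and transcripts came from GENCODE M21, to which 99.9% of the 54446 identifiers matched. Replicates differed by more than counting noise, with a chi-square per gene of 3.66 to 23.8 between libraries of a group. The methods were tested on simulated counts.

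By the study's methods Input and IP are parts of 1 lysate, but it is not stated that libraries of 1 replicate number belong together. Their deviations from the group means correlated at -0.057 to 0.027, and the fit with a replicate block was an alternative. Others were DESeq2 1.42.0, its size factors in edgeR, library size only, no filter or 10 counts in every library, protein-coding nuclear genes only, a prior count of 0.25 in place of 0.125, all 12 libraries in 1 fit, each replicate number left out and, added after seeing the data, each single library left out.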

Additional observations from a re-analysis of the deposited data

Results flagged for a closer look

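The IP over Input ratio differed between IR and Ctrl by the interaction test for 4 of the 9 tested ligands, where 13.9% of all genes were lower, and for *Lta*. It was also lower for 7 of the 15 signalling genes downstream of the receptors. The log2 differences were -0.59 for *Ltb*, -0.85 for *Tnfsf8*, -0.69 for *Tnfsf12*, -0.46 for *Tnfsf14* and -0.71 for *Lta*, lower in IR in each case. None of the 4 ligands was called with library size only. *Tnfsf8* was called in 5 of 23 alternatives, most of its losses coming with a library left out, *Tnfsf14* in 8, *Tnfsf12* in 20 and *Ltb* in 22, and the cause was not tested.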

How the results depend on the processing

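Of 1029 results under alternatives, 898 kept their direction and their side of the threshold (or moved by less than the spread), 44 lost and 12 gained a call, 35 moved and 40 changed sign. The replicate block changed no count of called ligands, with 3 higher and 2 lower for IP over Input in IR, 4 lower for the interaction, 3 higher in the Input and 1 lower in the IP, and it named the same genes.

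The 4 ligands with a lower ratio in IR became 2 (*Ltb* and *Tnfsf12*) with DESeq2's size factors, with 10 counts in every library and with protein-coding genes only, 0 with library size only, and 1 to 4 with libraries left out. With DESeq2 they were 3. *Ltb* was called in 22 of 23 alternatives, *Tnfsf12* in 20, *Tnfsf14* in 8 and *Tnfsf8* in 5. *Tnfsf8* was not called without Ctrl Input replicate 1 (adjusted p = 0.14) or 3 (0.093), IR Input replicate 1 (0.061), 2 (0.12) or 3 (0.091), Ctrl IP replicate 1 (0.058), 2 (0.16) or 3 (0.11), or IR IP replicate 1 (0.087) or 3 (0.093). *Tnfsf14* was not called without Ctrl Input replicate 1 (0.064) or 2 (0.097), IR Input replicate 1 (0.061) or 3 (0.11), Ctrl IP replicate 1 (0.071), 2 (0.13) or 3 (0.14), or IR IP replicate 1 (0.071) or 3 (0.11), while without IR IP replicate 1 *Tnf* was called (-0.35, adjusted p = 0.041). *Tnfsf12* was not called without replicate number 2 (0.071) or 3 (0.063).

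With libraries left out, the ligands called in IR for IP over Input were 3 to 5 higher and 2 to 3 lower, those lower in the Input 0 to 1 and those lower in the IP 0 to 1. Lower in the Input was 1 (*Tnfsf13*) with 10 counts in every library, and lower in the IP were 0 with library size only and 2 (*Tnfsf13b* and *Tnfsf14*) with all 12 libraries in 1 fit. Signs changed only for values that were not called. For IP over Input in IR, *Tnfsf13b* was 0.027 with DESeq2's size factors and with DESeq2, 0.13 with library size only, 0.10 with 10 counts in every library and 0.11 with protein-coding genes only, and *Ltb* was 0.022 with library size only and 0.00635 with protein-coding genes only. *Tnf* was 0.080 in the interaction and 0.14 in the IP with library size only, and *Tnfsf14* was 0.055 in the Input with all libraries. With libraries left out, the ranges were -0.20 to 0.042 for *Ltb* and -0.14 to 0.21 for *Tnfsf13b* in IR, -0.75 to 0.050 for *Tnfsf9*, -0.27 to 0.50 for *Tnfsf10* and -1.40 to 0.33 for *Tnfsf13* in the interaction, -1.10 to 0.23 for *Tnfsf10* and -0.079 to 0.024 for *Tnfsf14* in the Input, and -0.81 to 0.28 for *Tnfsf10*, -0.19 to 0.15 for *Tnf*, -0.13 to 0.27 for *Tnfsf8* and -0.17 to 0.56 for *Tnfsf9* in the IP. The causes were not tested. Counts of *Tnfsf10* and *Tnfsf13* under 60 per library limit what can be read from them.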
